A study of Homo sapiens with 26 samples.

Results

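The nuclear genes for the respiratory chain were followed through RNA-seq of 3 human esophageal squamous cell carcinoma (ESCC) lines after a change in the dose of BRDT, a bromodomain gene, or of TP63, the gene of a squamous transcription factor. A gene was a member if its symbol began with NDUFA, NDUFB, NDUFC, NDUFS, NDUFV, UQCR, COX4I, COX5, COX6, COX7, COX8 or ATP5, or was SDHA, SDHB, SDHC, SDHD or CYC1, and if its mean normalised read count reached 50 in each of the 5 expression tables. Of 103 such symbols, 3 pseudogenes and 3 antisense genes were set aside and 11 fell under the limit, which left 86 of the 26485 symbols. The closest to the limit on the low side was NDUFA4L2, whose lowest table mean was 22.0. The members comprised 45 genes of complex I, 4 of complex II, 9 of complex III, 12 of complex IV and 16 of the ATP synthase. The name "subunits" held for 76 of them, because the rule also took 10 genes whose products are not stable subunits (NDUFAF1 to NDUFAF7, ATP5S, ATP5SL and COX7A2L). The chains encoded by mitochondrial DNA were not analysed here.

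The study describes KYSE180 and TE6 as BRDT-positive and KYSE150 as BRDT-negative. Knockdown cells received control (siCont), BRDT (siBRDT) or TP63 (siTP63) small interfering RNA for 48 h. KYSE180 was used in separate BRDT (3 siCont, 3 siBRDT) and TP63 (2 siCont, 2 siTP63) experiments, TE6 in 1 experiment with 2 libraries each of siCont, siBRDT and siTP63, and KYSE150 in a TP63 experiment (2 siCont, 2 siTP63). A BRDT plasmid put in by electroporation (BRDT-OE) was compared with its control vector in KYSE150 (3 libraries each). Which siRNA of those designed for a gene was used is not stated, so off-target effects of 1 siRNA cannot be told apart from loss of the gene. The 26 libraries held 7582089 to 19372441 reads. Nothing in the labels says that replicates came from separate cultures, so p-values measure the spread between these libraries, which may be technical. BRDT read counts were 830 to 1379 in the siCont and 124 to 228 in the siBRDT libraries of KYSE180, 274 and 281 against 51 and 39 in TE6, and 6 to 17 against 12475 to 18833 with BRDT-OE. The siCont libraries of KYSE150 held 41 and 7 BRDT reads, and its siTP63 libraries 0 and 8. TP63 normalised counts were lower in each siTP63 library than in any siCont library of its experiment. All 7 genes of the list called squamous markers here (KRT5, KRT14, KRT6A, KRT17, TP63, CDH1 and EPCAM) had reads in every library. CDH1 and EPCAM are not specific to squamous epithelium, so counts over this list are not of squamous genes alone. Of the marker lists of other cell types, PTPRC, DCN, PECAM1 and CDH5 were at 0 in 16, 17, 7 and 7 libraries. Others were not: the fibroblast marker COL1A1 had reads in every library. Its mean was 916 normalised reads in the KYSE180 BRDT experiment and 70.9 in the KYSE150 TP63 experiment. COL3A1 was at 0 only in KYSE150, in 2 libraries of the TP63 and 3 of the BRDT-OE experiment. Summed over a list, fibroblast and endothelium markers came to 3.80 to 120 and 0.637 to 12.1 RPM (reads scaled to the library total).

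The respiratory chain passes electrons from NADH (complex I) and succinate (complex II) through complex III and cytochrome c to oxygen at complex IV, and the proton gradient that it builds drives the ATP synthase. Most of its chains are nuclear genes with short mRNAs, and each complex needs its members in fixed proportions. NRF1, the ETS factor GABPA and YY1 are known regulators of many of these promoters.

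Before any comparison, the libraries themselves stood apart. The share of reads in the 86 genes was 1.14 to 1.26% in the siCont libraries of the KYSE180 BRDT experiment and 2.66 to 2.82% in those of the KYSE180 TP63 experiment, although line and control siRNA name are the same. Genes whose canonical transcript (GENCODE release 44) is 1500 bases or shorter, members left out, took 14.2 to 15.5% and 31.3 to 32.1% of reads in the same groups, and the length of the median read's transcript was 3157 to 3282 and 2048 to 2059 bases. The 14 libraries with a short-gene share of 22.0% or more had a members' share of 1.81 to 3.08%, and the other 12 one of 1.14 to 1.52%; among the 12 the order was not the same, since KYSE180 siBRDT replicate 3 had the lowest short-gene share (13.8%) and a members' share of 1.32%, above every siCont library of its experiment. Levels are therefore compared only within an experiment. The members' canonical transcripts had a median of 909 bases (303 to 11660), against 3275 over all genes with a mean of 10 or more. Within bulk RNA, fewer cells with a transcript and less transcript per cell cannot be told apart.

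**Figure D1:**
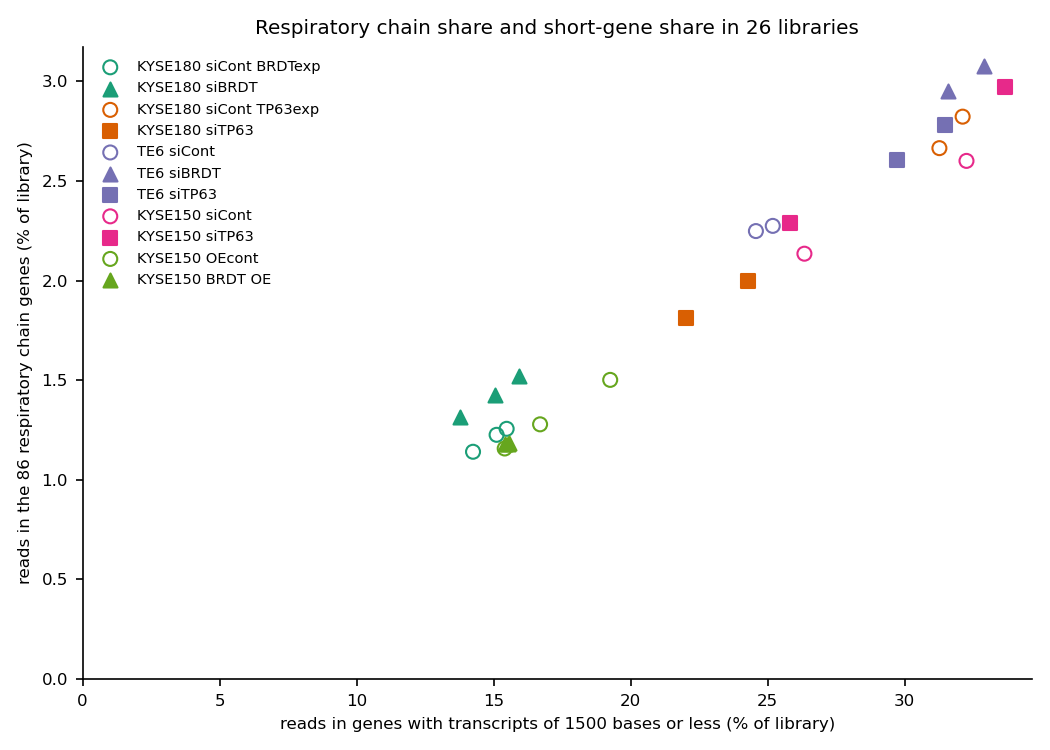
Each point is 1 of 26 libraries; the x axis is the percent of its reads in other genes with canonical transcripts of 1500 bases or less and the y axis the percent in the 86 respiratory chain genes, with color for the experiment, open circles for controls, squares for siTP63 and triangles for siBRDT or BRDT-OE. The 2 KYSE180 control groups lie at 1.14 to 1.26% and at 2.66 to 2.82%, far apart on both axes.

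Per length, the ATP synthase beta chain gene ATP5B was the most abundant member in the siCont cells of the KYSE180 BRDT experiment, at 606 ± 26.2 RPKM, reads scaled to library total and transcript length (SD, n = 3), with COX8A at 590.0 ± 24.5 and COX4I1 at 577 ± 48.6. These 3 do not differ beyond their spread. In TE6 siCont cells COX6B1 led at 2728 ± 43.1 (SD, n = 2), above ATP5B at 1482 ± 9.73. The complex I assembly gene NDUFAF5 was lowest in the first of these groups, at 2.03 ± 0.125. The list's summed share of reads gives most weight to genes with many reads, and the results below count genes instead. A gene was called when limma's adjusted p over all genes tested was under 0.05 and the log2 fold change, computed on log2(value + 1), was at least 0.5 in size.

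In order to ask what loss of BRDT did in KYSE180, siBRDT was compared with siCont. Of the 86 genes 7 rose (beside 14.5% of all 13589 genes tested) and 0 fell (15.8% of all genes), with a median log2 fold change of 0.13 against -0.01 over all genes. The share of members called up was thus under that of all genes. In 33 members all siBRDT libraries lay above all siCont libraries (31.0% of all genes) and in 8 below (31.8%). By the adjusted p alone, with no limit on size, 34 members rose (28.6% of all genes) and 9 fell (29.8%). The 7 genes were CYC1, NDUFA7, ATP5F1, NDUFAF4, NDUFB7, UQCR10 and NDUFA8. CYC1, cytochrome c1 of complex III, stood at 1873, 2072 and 2034 normalised reads in siCont and 5112, 5297 and 4582 in siBRDT cells. Its groups did not overlap, with a log2 fold change of 1.32 ± 0.07 (SE, adjusted p = 1.1e-09), while UQCRC1, a core protein of the same complex, had -0.07 ± 0.07 (adjusted p = 0.36). NDUFA7, an accessory subunit of complex I, went from 109, 153 and 152 to 391, 321 and 289, a log2 fold change of 1.27 ± 0.14 (adjusted p = 2.2e-06). ATP5F1, of the stator stalk of the ATP synthase, went from 1297, 1418 and 1131 to 2409, 2265 and 2130.2, a log2 fold change of 0.83 ± 0.08 (adjusted p = 6.6e-07). Of the 7 core subunits of complex I 0 were called, with NDUFS1 at 0.06 ± 0.07 and NDUFV1 at -0.02 ± 0.07. Within the gene trio that encodes one and the same c-ring chain of the ATP synthase, ATP5G1 and ATP5G3 had 0.46 ± 0.08 and 0.38 ± 0.07 and ATP5G2 -0.43 ± 0.07, all 3 with groups that did not overlap but each under the size limit. The cytoplasmic ribosomal protein genes, also short, went the other way in the same libraries, with 0 of 77 up, 17 down and a median of -0.39. Without siBRDT replicate 3 the count of members called up was 12, and it was 11 with the libraries set to equal upper quartiles. The shares of all genes called up under these settings are not given here. These counts therefore do not show whether the members' share stayed under that of all genes. In the same libraries 5 of 7 squamous markers were called down, TP63 stood at 9400 to 10366 normalised reads with siCont and 5924 to 7223 with siBRDT, and the part of these shifts was not tested.

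In TE6, 52 of the 86 genes rose with siBRDT (15.6% of all 13333 genes) and 1 fell (18.1% of all genes), with a median of 0.56 against -0.04 over all genes. Complex I had 30 of 45 genes up and 1 down, complex III 7 of 9 up, complex IV 8 of 12 up, the ATP synthase 7 of 16 up, and complex II 0 of 4. In 70 of the 86 genes both siBRDT libraries lay above both siCont libraries, which held for 34.5% of all genes, and in 3 below (37.3%). Other short genes also rose: of 1952 with a canonical transcript of 1500 bases or less 814 were called up and 49 down, with a median of 0.49. The cytoplasmic ribosomal protein genes had 40 of 77 up and a median of 0.52. After a fit of length and GC content had been taken out of every library, 32 members were called up (37.2%, beside 10.8% of all genes) with a median of 0.34, and 18 (20.9%, beside 9.57%) with a median of 0.21 with canonical lengths. With libraries rescaled to equal upper quartiles the all-gene median was 0.24, with 2716 genes called up and 588 down, against 2074 and 2419, and 61 members up. In the same libraries 4 of 7 squamous markers were called down. TP63 stood at 2596 and 2785 normalised reads with siCont and 1282 and 1147 with siBRDT. The part of these shifts in the members' rise was not tested.

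The members with the largest rise in TE6 were NDUFB7, NDUFS6 and ATP5D. NDUFB7, an accessory subunit of complex I, went from 1600.0 and 1406 to 4324 and 3538 normalised reads, a log2 fold change of 1.38 ± 0.11 (SE, adjusted p = 3.5e-06). NDUFS6, needed late in complex I assembly, went from 2883 and 2637 to 6915 and 5609, or 1.18 ± 0.11 (adjusted p = 8.5e-06). ATP5D, the delta chain of the ATP synthase, went from 1925 and 1549.6 to 4377 and 3253, or 1.13 ± 0.14 (adjusted p = 5.1e-05). The ATP5D call ended with canonical lengths (0.40). In all 3 genes each siBRDT library was above each siCont library. NDUFS1, the largest core subunit of complex I, was the 1 gene called down: 1699 and 1691 with siCont, 826 and 1310.4 after BRDT knockdown, or -0.70 ± 0.16 (adjusted p = 0.0039). That call was lost without siCont replicate 2 (-0.71, adjusted p = 0.051), without siBRDT replicate 1 (-0.37), with upper quartiles (-0.42) and with the length trend removed (-0.29). Of the other genes set for naming, NDUFV1 (0.84), COX4I1 (0.81), COX5A (0.81), CYC1 (0.83) and ATP5G1 (0.90) rose. With the length and GC trend removed the calls of COX5A (0.45) and CYC1 (0.26) ended, and with canonical lengths those of all 5 (0.36, 0.32, 0.45, 0.13 and 0.39 in the order above). UQCRC1 (0.54) also rose, a call that ended without siCont replicate 2 (0.47), with the length and GC trend removed (0.052) and with canonical lengths (0.092). The alpha and beta chains of the ATP synthase head, ATP5A1 and ATP5B, had -0.09 ± 0.09 and -0.07 ± 0.11. Complex II, which is also a citric acid cycle enzyme, had SDHA at 0.16, SDHB at 0.24, SDHC at -0.38 and SDHD at -0.43, of which none was called, although SDHC (-0.75) and SDHD (-0.64) were called down with the length and GC trend removed and likewise with canonical lengths (-0.75 and -0.63).

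Of the 7 members called up with siBRDT in KYSE180, 6 (85.7%) were among the 52 called up in TE6 (11.5% of those): CYC1, NDUFA7, NDUFA8, NDUFAF4, NDUFB7 and UQCR10. In TE6 60.5% of all members and 15.6% of all genes had that call. The 2 lines have separate controls. UQCR10, a small subunit of complex III, went from 749.7, 705 and 688 to 1317, 1133 and 974 in KYSE180 and from 1195 and 1421 to 2299 and 2406 in TE6. NDUFAF4, an assembly factor of complex I, went from 137, 129 and 156 to 279, 239.7 and 231 in KYSE180 (log2 fold change 0.82 ± 0.11, adjusted p = 1.8e-05) and from 269 and 298 to 649.5 and 441 in TE6 (0.92 ± 0.17, adjusted p = 8.5e-04). With the length trend removed the TE6 calls of NDUFA7, CYC1, UQCR10 and NDUFA8 ended, at 0.39, 0.26, 0.40 and 0.34, as did the KYSE180 calls of NDUFB7 (0.49) and NDUFA8 (0.47), so that of the 6 NDUFAF4 alone was then called in both lines. With canonical lengths NDUFAF4 and NDUFB7 kept their calls in both. ATP5F1, under the size limit in TE6 (0.49), was called up in both lines with the length and GC trend removed (0.86 in KYSE180, 0.55 in TE6). The same held with canonical lengths (0.87 and 0.63). Tested directly, the siBRDT effect was lower in KYSE180 than in TE6 for 49 members (19.4% of all 12612 genes) and higher for 2 (22.5% of all genes), CYC1 by 0.50 ± 0.14 (adjusted p = 0.0069) and NDUFS1 by 0.76 ± 0.18 (adjusted p = 0.0025). Without TE6 siCont replicate 2 the 49 became 32. For NDUFA7 the difference was 0.29 with a 95% interval of -0.14 to 0.72 and for NDUFAF4 -0.09 (-0.53 to 0.34), so neither a difference nor a like response was shown.

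Because NRF1, GABPA and YY1 are known at many of these genes, the RefSeq promoter windows (GRCh38.p14, 250 bases before to 50 after the start) of 70 members were searched on both strands for GCGCA, any base, then GCGC (NRF1), CCGGAAG (the ETS core) and AAGATGGCG (YY1). At least 1 of these was in 39 windows (55.7%, against 18.9% of 27305 genes in the table, expressed or not). The NRF1 letters were in 16 (22.9% against 6.98%), the ETS letters in 21 (30% against 12.2%) and the YY1 letters in 9 (12.9% against 2.13%), and no match of one overlapped one of another in a member. With TE6 siBRDT the members with the NRF1 letters had a median log2 fold change of 0.57 and the others 0.55. With KYSE180 siTP63 these were -1.03 and -1.01, with TE6 siTP63 0.11 and 0.31 and with KYSE180 siBRDT 0.20 and 0.077. Members with and without the ETS letters had -1.15 and -0.99 with KYSE180 siTP63, 0.64 and 0.54 with TE6 siBRDT, 0.41 and 0.27 with TE6 siTP63 and 0.13 and 0.091 with KYSE180 siBRDT, and those with and without the YY1 letters -1.15 and -1.02, 0.54 and 0.58, 0.24 and 0.28, and 0.21 and 0.083. None of these differences was tested. A match is a description of letters only. As examples, the windows of 3 of the 6 genes called up with siBRDT in both lines are shown to 30 bases after the start. The others of the 6 are not shown. Also shown are ATP5G1, the largest fall with siTP63 in KYSE180, and SDHD, whose siTP63 libraries lay above siCont there. The examples do not show whether genes that rose hold the letters more often. Matches are in capitals, and the window of ATP5G1 has none.
NDUFA7 (chr19:8321346-8321625, minus strand): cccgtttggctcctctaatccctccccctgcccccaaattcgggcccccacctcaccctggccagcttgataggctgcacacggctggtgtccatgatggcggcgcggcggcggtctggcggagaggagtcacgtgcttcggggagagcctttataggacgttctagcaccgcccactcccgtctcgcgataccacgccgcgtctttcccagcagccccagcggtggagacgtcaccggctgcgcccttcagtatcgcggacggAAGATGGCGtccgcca
NDUFB7 (chr19:14572037-14572316, minus strand): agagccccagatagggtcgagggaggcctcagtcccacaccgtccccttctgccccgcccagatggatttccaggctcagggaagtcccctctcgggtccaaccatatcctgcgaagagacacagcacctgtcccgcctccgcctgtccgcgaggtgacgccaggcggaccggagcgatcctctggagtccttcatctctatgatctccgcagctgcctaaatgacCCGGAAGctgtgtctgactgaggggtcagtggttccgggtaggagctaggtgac
UQCR10 (chr22:29767119-29767398, plus strand): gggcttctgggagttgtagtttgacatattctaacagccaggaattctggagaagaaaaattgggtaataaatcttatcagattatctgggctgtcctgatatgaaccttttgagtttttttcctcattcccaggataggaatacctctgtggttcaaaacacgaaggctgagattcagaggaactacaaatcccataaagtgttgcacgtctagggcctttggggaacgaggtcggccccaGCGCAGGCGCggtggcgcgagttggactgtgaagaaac
ATP5G1 (chr17:48892537-48892816, plus strand): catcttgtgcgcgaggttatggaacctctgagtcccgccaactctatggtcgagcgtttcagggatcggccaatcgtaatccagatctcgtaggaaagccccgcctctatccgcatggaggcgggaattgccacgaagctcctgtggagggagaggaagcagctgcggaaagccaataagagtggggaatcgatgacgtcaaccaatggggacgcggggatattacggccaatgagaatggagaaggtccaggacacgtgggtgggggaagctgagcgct
SDHD (chr11:112086623-112086902, plus strand): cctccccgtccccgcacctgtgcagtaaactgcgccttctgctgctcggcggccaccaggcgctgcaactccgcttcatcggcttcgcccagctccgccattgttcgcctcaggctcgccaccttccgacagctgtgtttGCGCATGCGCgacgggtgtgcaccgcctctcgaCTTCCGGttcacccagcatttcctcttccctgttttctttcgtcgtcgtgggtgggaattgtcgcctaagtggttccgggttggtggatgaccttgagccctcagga
NDUFA7 holds the YY1, NDUFB7 the ETS and UQCR10 the NRF1 letters, and SDHD both NRF1 and ETS.

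Knockdown of TP63 in KYSE180 was the comparison in which the members moved furthest. Of the 86 genes 74 fell (25.7% of all 13924 genes) and 0 rose (23.6% of all genes), with a median log2 fold change of -0.995 against 0.00 over all genes. In 81 members both siTP63 libraries lay below both siCont libraries (40.4% of all genes) and in 2 above (39.8%). Complex I had 38 of 45 genes down, complex III 9 of 9, complex IV 11 of 12, the ATP synthase 15 of 16 and complex II 1 of 4. Outside complex II, 68 of 72 subunits were called down. Other short genes fell too, 1124 of 2130 with a canonical transcript of 1500 bases or less against 200 up, with a median of -0.63. With the length and GC trend removed, 57 members were called down (66.3%, beside 25% of all genes) and 2 up with a median of -0.72, and with canonical lengths 49 were called down (57%, beside 24.3%) with a median of -0.59. With equal upper quartiles the all-gene median was 0.22, with 4660 genes called up and 2554 down, against 3292 and 3577, and 67 members down. The members' share of reads was 2.66 and 2.82% with siCont and 1.81 and 2.0% with siTP63. In the same libraries 5 of 7 squamous markers were called down and 1 up, the 3 endothelium markers summed to 1.36 to 2.09 RPM with siCont and 11.3 to 12.1 with siTP63, and the part of these shifts in the members' fall was not tested.

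**Figure D2:**
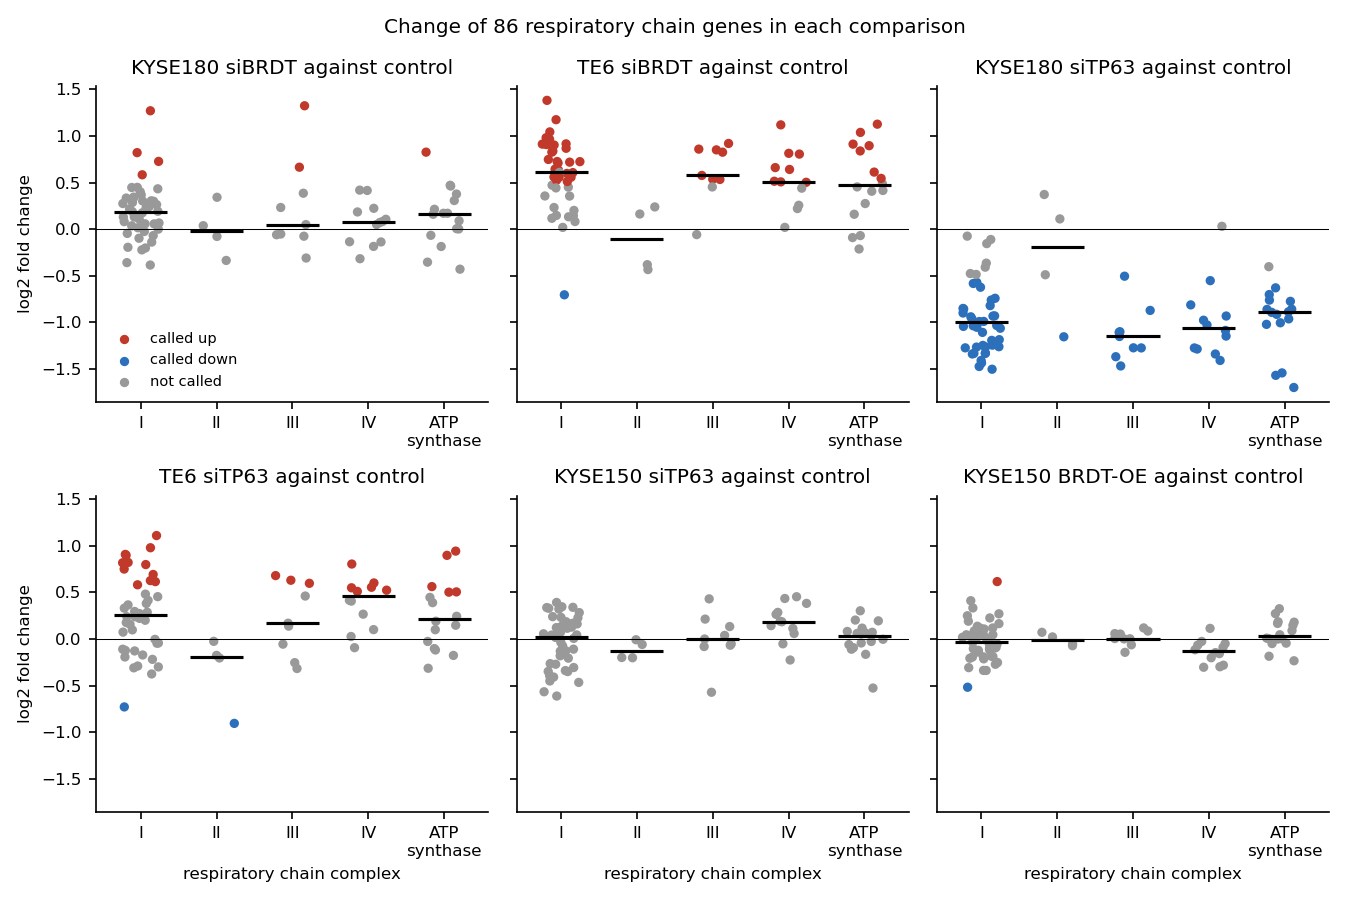
Each point is 1 of the 86 genes, placed by its complex on the x axis and its log2 fold change against the control of its experiment on the y axis, in 6 comparisons; red and blue are called up and down, and the bar is the median of the complex. With siTP63, 74 genes are called down in KYSE180 and 26 up in TE6, and of the 4 genes of complex II 1 is called down in each line.

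The largest falls were of 3 ATP synthase genes. ATP5G1, one of the 3 genes for the c-ring, went from 7180.3 and 8725 to 2674 and 2227 normalised reads, a log2 fold change of -1.70 ± 0.15 (SE, adjusted p = 1.4e-09). Its partners ATP5G2 and ATP5G3 fell by 0.77 ± 0.16 and 0.96 ± 0.16. ATP5D went from 8019 and 5621 to 2556 and 2008 (-1.57 ± 0.17, adjusted p = 1.9e-08), and ATP5I, a small membrane chain, from 4716 and 5039 to 1903 and 1474 (-1.54 ± 0.15, adjusted p = 4.3e-09). The head chains ATP5A1 and ATP5B fell less in value, by 0.70 ± 0.17 and 0.89 ± 0.17. Among the electron carriers and their scaffold, NDUFV1, the NADH-binding core subunit, fell by 1.11 ± 0.18, UQCRC1 by 1.27 ± 0.15, CYC1 by 0.87 ± 0.15 (not called with the length trend removed, at -0.44) and COX4I1, a regulatory subunit of complex IV, by 1.28 ± 0.18. COX4I1 was at 29785 and 22792 in siCont and 11976 and 9548 in siTP63 cells. COX6B1 fell by 1.15 ± 0.16 and NDUFA4, today counted as a complex IV subunit, by 0.98 ± 0.18. COX5A fell by 0.55 ± 0.15, a call lost without siCont replicate 2 (-0.40) and without siTP63 replicate 2 (-0.46). It was also lost with upper quartiles (-0.33), with the length and GC trend removed (-0.11) and with canonical lengths (-0.16). With canonical lengths the calls of ATP5G2 (-0.15), COX6B1 (-0.45) and CYC1 (-0.28) ended as well, and with upper quartiles that of ATP5A1 (-0.48).

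In complex II 1 of 4 genes was called. SDHB, its iron-sulfur subunit, went from 3841 and 3912 to 1802 and 1684, a log2 fold change of -1.15 ± 0.14 (adjusted p = 1.4e-07). SDHA, the flavoprotein, had 5104 and 4439 against 3519 and 3273 (-0.49 ± 0.15, adjusted p = 0.0060, just under the size limit). The membrane anchors were not lower: SDHC had 929.6 and 1162 against 1030.0 and 1223 (0.11 ± 0.15, adjusted p = 0.54), and SDHD had 324 and 428 against 489 and 476 (0.37 ± 0.16, adjusted p = 0.047). With the length and GC trend removed both were called up, SDHC at 0.51 and SDHD at 0.71, and with canonical lengths SDHD was (0.66) and SDHC was not (0.47). COX7A2L, which acts in supercomplexes of complexes III and IV rather than in complex IV itself, had 1898 and 1853 against 1933 and 1902 (0.03 ± 0.14), whereas its paralog COX7A2 fell from 4042 and 5098 to 1819 and 1771 (-1.34 ± 0.15, adjusted p = 3.2e-08). NDUFS1 had 1395 and 1409.7 against 976 and 1146 (-0.41 ± 0.14, adjusted p = 0.016), under the size limit.

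In TE6 the same siRNA target gave 26 members up (18.3% of all 13333 genes) and 2 down (20.6% of all genes), with a median of 0.25 against -0.01. Both siTP63 libraries lay above both siCont libraries in 51 members (39.8% of all genes) and below in 18 (40.7%). Other short genes of the canonical list had a median of 0.31, and 637 of 1952 were up and 154 down. The siTP63 and siBRDT comparisons of TE6 share their 2 siCont libraries. NDUFB7 went from 1600.0 and 1406 to 3249.8 and 3229 (1.11 ± 0.11, adjusted p = 7.0e-06), NDUFS6 from 2883 and 2637 to 5636 and 5248 (0.98 ± 0.11, adjusted p = 1.6e-05) and ATP5E, the epsilon chain of the ATP synthase, from 2081 and 2293 to 4363 and 4047 (0.94 ± 0.10, adjusted p = 7.2e-06). Complex IV had 6 of 12 genes up, with COX4I1 at 0.60 ± 0.09, COX5A at 0.56 ± 0.09 and COX7A2 at 0.52 ± 0.10. With the length and GC trend removed 3 of the 12 were up, and 1 with canonical lengths. The calls of COX5A (0.49), COX6B1 (0.43), COX7A2 (0.41) and ATP5G2 (0.49) were lost without siTP63 replicate 1, those of COX7A2 (0.50) and ATP5G2 (0.50) also without siCont replicate 1, and that of COX6B1 (0.49) also without siCont replicate 2. SDHD went from 651 and 747 to 372 and 373 (-0.90 ± 0.21, adjusted p = 0.0035), a call lost without siCont replicate 2 (-0.81, adjusted p = 0.064), and NDUFS1 from 1699 and 1691 to 1021 and 1025 (-0.73 ± 0.16, adjusted p = 0.0026), which was not called with the length trend removed (-0.39). With the length and GC trend removed 15 members were called up (17.4%, beside 16.1% of all genes) and 5 down, and with canonical lengths 9 were up (10.5%, beside 15.3%) and 6 down, so the members' share up was then near or under that of all genes. In the same libraries 5 of 7 squamous markers were called down, and the 3 endothelium markers summed to 4.21 to 5.83 RPM with siCont and 7.85 to 9.76 with siTP63, and the part of these shifts was not tested. TP63 itself was below siCont (2596 and 2785 normalised reads) with both treatments, at 1282 and 1147 with siBRDT and 133 and 112 with siTP63. Directly between the treatments, siTP63 was lower than siBRDT for 39 members (19.9% of all genes) and higher for 1 (19.3% of all genes), COX7A2L, by 0.40 ± 0.10. The largest such difference was in NDUFAF4, at -1.11 ± 0.17. The count of 39 was 14 to 50 with 1 library left out, with 14 without siTP63 replicate 2 and 17 after upper-quartile rescaling.

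Tested between the lines, the siTP63 effect was lower in KYSE180 than in TE6 for 76 members (28.8% of all 12780 genes) and higher for 1, SDHD (26.2% of all genes). ATP5D differed by -2.47 ± 0.24, NDUFS6 by -2.24 ± 0.18, COX4I1 by -1.89 ± 0.19 and CYC1 by -1.50 ± 0.17, whereas SDHD differed by 1.28 ± 0.29 (adjusted p = 0.0011). For NDUFS1 the difference was 0.32 ± 0.22, not past the threshold (adjusted p = 0.24). Of the 26 members called up in TE6, 25 (96.2%) were among the 74 called down in KYSE180 (33.8% of those), a call that 86% of all members had there. In these libraries the short-gene share moved in the same 2 directions: from 31.3 and 32.1% to 22.0 and 24.3% in KYSE180 and from 24.6 and 25.2% to 29.7 and 31.5% in TE6. Within KYSE180, siTP63 was lower than siBRDT, each against its own control, for 79 members (33.7% of all genes) and higher for 2 (31.3% of all genes); these experiments also differed in control libraries, as given above.

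**Figure D3:**
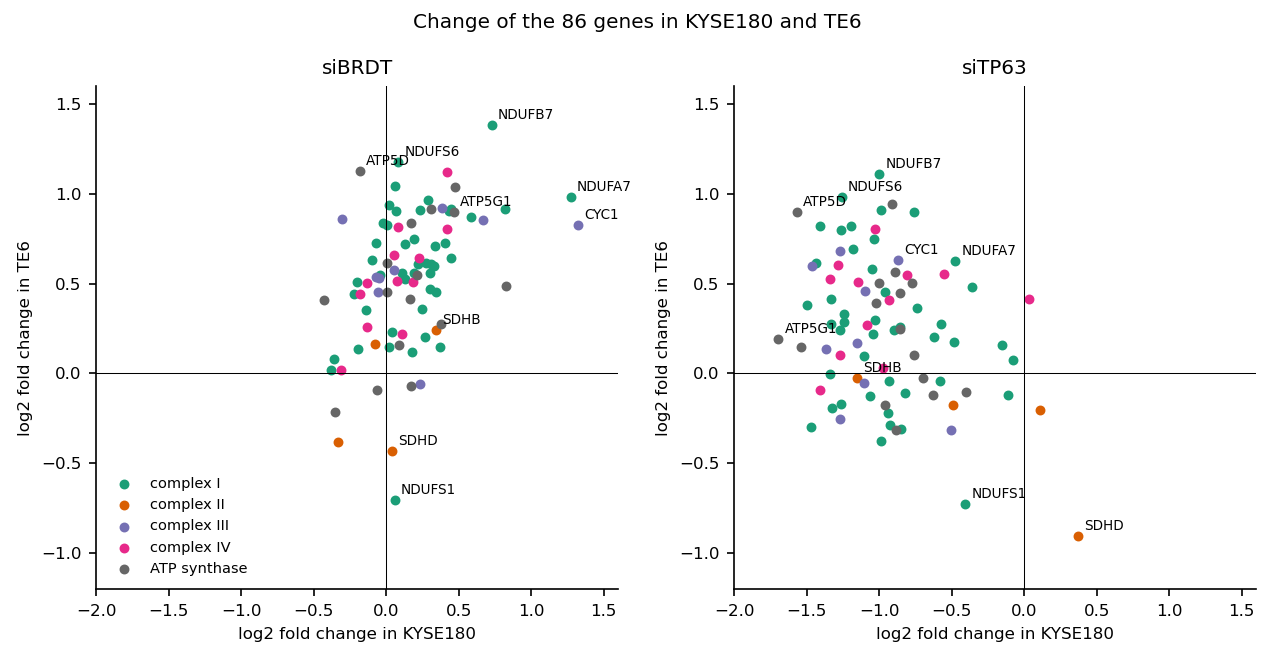
Each point is 1 of the 86 genes, with its log2 fold change in KYSE180 on the x axis and in TE6 on the y axis for siBRDT (left) and siTP63 (right), colored by complex. With siTP63, 83 of the genes lie left of 0 and 59 above 0, and SDHD is the point farthest to the right and lowest.

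By the annotated length of the canonical transcript, the members were set beside other genes of the same length class. With KYSE180 siTP63, the 46 members of up to 1000 bases had a median of -1.12 and the 1010 other genes -0.74. Over 1000 and up to 2000 bases these were -0.89 (n = 19) and -0.42, over 2000 and up to 4000 bases -0.87 (n = 12) and -0.02, and above 4000 bases -0.86 (n = 9) and 0.29. With TE6 siBRDT the same medians were 0.72 and 0.52, 0.42 and 0.34, 0.36 and -0.02, and 0.53 and -0.35. With TE6 siTP63 they were 0.43 and 0.31 in the shortest class but -0.04 and 0.22 from 1000 to 2000 bases. In the 2 classes of longer transcripts the member numbers are small. Which transcript of a gene the cells expressed was not measured, so a class may not hold the lengths of the mRNAs present. The medians of the longer classes therefore do not show how members with long mRNAs behaved. Within the members, Spearman's rho of length and log2 fold change was 0.37 with KYSE180 siTP63, -0.38 with TE6 siBRDT, -0.47 with TE6 siTP63 and -0.05 with KYSE180 siBRDT, over 86 genes that share libraries and are not independent replicates. Named pseudogenes, which can draw reads from their parent gene, exist for 51 members. Their medians were -1.003 with KYSE180 siTP63 and 0.53 with TE6 siBRDT, against -0.99 and 0.61 for the other 35.

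**Figure D4:**
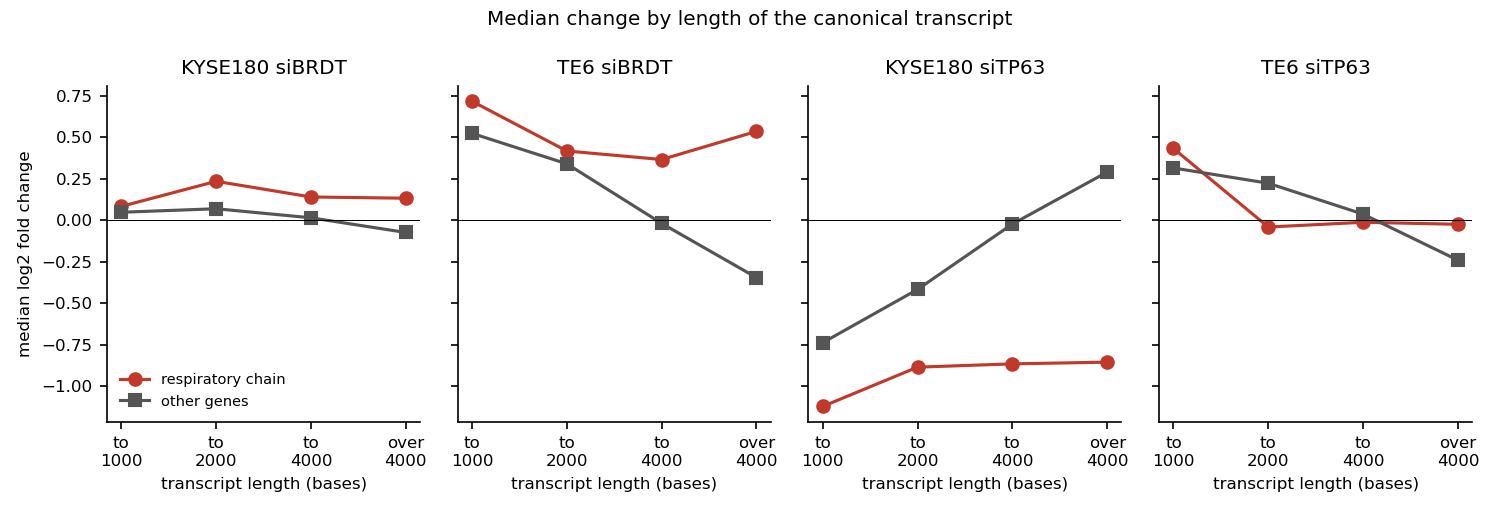
Median log2 fold change on the y axis by the length class of the canonical transcript in bases on the x axis, for the respiratory chain genes (circles) and the other genes (squares) in 4 comparisons. In KYSE180 siTP63 the other genes run from -0.74 to 0.29 while the members stay between -1.12 and -0.86. Lengths are those annotated, and the transcripts expressed were not measured.

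KYSE150 gave 0 members up or down with siTP63 by limma, as for every other gene (0.00% of 12335 genes called), with 0 members under an unadjusted p of 0.05 (17.8% of all genes) and 0 by edgeR or DESeq2. With the length and GC trend removed 293 genes were called up and 432 down, and with canonical lengths 495 and 689, with 0 members among them either time. Groups did not overlap in 3 members that were higher (24.3% of all genes) and 5 that were lower (24.6%). The median of the members was 0.04. Replicates differed more than groups: NDUFV1 had 6082 and 3386 with siCont and 2129.8 and 4146 with siTP63, and COX4I1 had 17029 and 10228 against 9418 and 20087. The short-gene share was 26.3 and 32.3% in the siCont and 25.8 and 33.6% in the siTP63 libraries. The half-width of a member's 95% interval had a median of 0.76, so changes of this size were not detectable.

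BRDT-OE in KYSE150 called 1 member up (10.5% of all 12765 genes) and 1 down (16.0% of all genes), with a median of 0.00 against 0.02. Groups did not overlap in 3 members that were higher (30.9% of all genes) and 9 that were lower (29.3%). NDUFAF4 had 346, 390.5 and 519.6 normalised reads in control and 644, 617 and 638 in BRDT-OE cells (0.62 ± 0.13, adjusted p = 0.0029). NDUFA7 had 793, 699 and 1044 against 604, 592 and 553 (-0.52 ± 0.13, adjusted p = 0.0071). The groups did not overlap in either gene, but the NDUFAF4 call was lost without control replicate 1 (0.49) and that of NDUFA7 if control replicate 3 (-0.35) or BRDT-OE replicate 3 (-0.48) was left out. NDUFA7 was thus called down with BRDT added in KYSE150 and up with BRDT lowered in KYSE180 and TE6, of which the KYSE150 (-0.42) and TE6 (0.39) calls ended with the length and GC trend removed, while NDUFAF4 was called up in all 3. CYC1 did not change past the threshold (4881, 4092 and 5280.5 against 4467, 4592 and 4524). Control replicate 3 had 86 of 86 members above the control mean and control replicate 2 had 1.

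**Figure D5:**
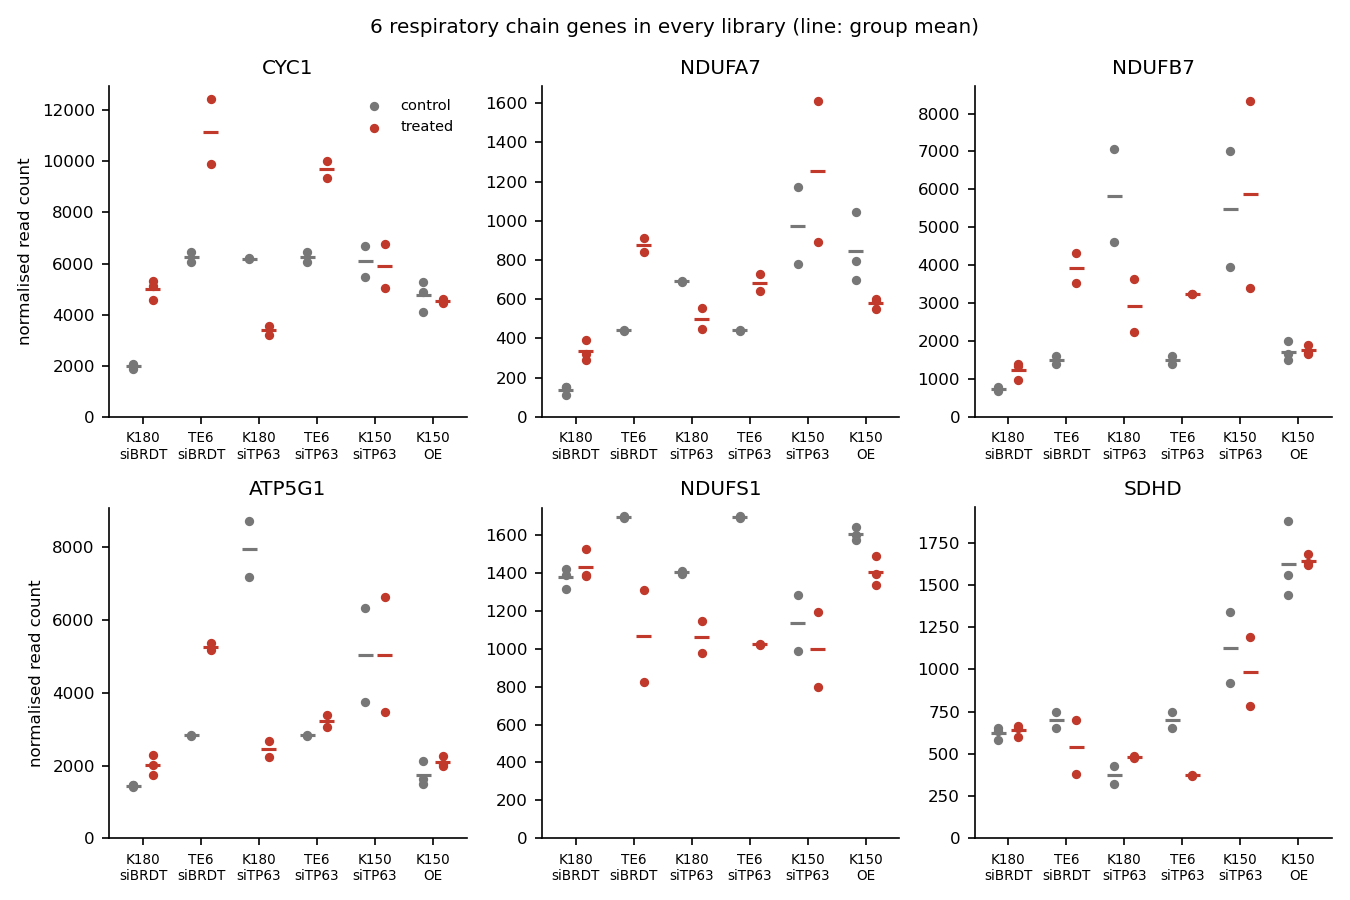
Normalised read counts (y axis, from 0) of 6 members in every library of 6 comparisons (x axis; K180 is KYSE180, K150 is KYSE150), grey for control and red for treated, with a line at the group mean. CYC1, NDUFA7 and NDUFB7 lie above their controls in both siBRDT comparisons; the TE6 controls appear in both TE6 comparisons.

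The gene lists of the mitochondrion beside the chain showed where the members were not alone. Of all genes tested, 14.5% were called up and 15.8% down with KYSE180 siBRDT. The same shares were 15.6 and 18.1% with TE6 siBRDT and 23.6 and 25.7% with KYSE180 siTP63. They were 18.3 and 20.6% with TE6 siTP63 and 10.5 and 16.0% with BRDT-OE. Mitochondrial ribosomal protein genes had 21 of 77 up and 3 down with KYSE180 siBRDT, 48 up and 1 down with TE6 siBRDT, and 0 up and 67 down with KYSE180 siTP63, and in that order the largest rise was in MRPL34 (1.235), the largest rise in MRPL52 (1.27) and the largest fall in MRPL12 (-2.17). The 48 became 17 with the length and GC trend removed and 11 with canonical lengths, and the 67 became 55 and 54. Assembly factors outside the rule had 11 up and 2 down, 18 up and 0 down, and 0 up and 27 down of 42; UQCC3, an assembly factor of complex III, had 1.75 with TE6 siBRDT and -2.03 with KYSE180 siTP63. Protein import translocases had 8 up and 0 down, 8 up and 0 down, and 0 up and 19 down of 24, with TIMM44 at 1.10, TIMM13 at 1.06 and TIMM13 at -2.08. With TE6 siBRDT the 18 assembly factors up became 10 with the length and GC trend removed and 6 with canonical lengths. The 8 translocases up became 5 and 5. Citric acid cycle genes had 1 up and 2 down, 2 up and 1 down, and 0 up and 8 down of 18, with FH, fumarase, at -1.19 with KYSE180 siTP63. Known regulators of mitochondrial gene expression had 7 up and 3 down of 18, 3 up and 5 down of 19, and 1 up and 9 down of 18. Among these GABPA, an ETS factor, was the largest fall with siBRDT in both lines, at -1.27 ± 0.12 (adjusted p = 4.4e-07) in KYSE180 and -1.36 ± 0.26 (adjusted p = 0.0011) in TE6, while its partner GABPB1 rose by 1.59 ± 0.07 in KYSE180. MYC, a growth regulator, fell by 1.63 ± 0.15 with KYSE180 siTP63. With TE6 siTP63 the mitochondrial ribosomal list had 10 up and 2 down, the assembly list 12 and 7, the translocases 1 and 1, the citric acid cycle 0 and 4 and the regulators 2 and 10. With BRDT-OE these were 6 and 0, 2 and 2, 7 and 0, 0 and 1 and 2 and 1. In TE6 siBRDT 11.1% of the citric acid cycle genes were up and 5.56% down, and 15.8% of the regulators up and 26.3% down. The shares up of these 2 lists were thus under or near that of all genes.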

How the data were processed

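RNA was measured in 26 libraries (TruSeq RNA V2 kit). Per the submitters' processing notes, STAR 2.6.0, HTSeq 0.11.2 and DESeq2 1.24.0 were used with hg38. Annotation, strand setting and counting options are not given in the sources used here. The deposited values are a normalised signal that the authors made by dividing gene counts by a size factor per library, separately in 5 tables. Every value was a whole multiple of what 1 read is worth (100% in each library, tolerance 0.01), so totals could be recovered. A count of 0 allows up to 3 reads, or 0.155 to 0.396 RPM (reads scaled to the library total), and this floor covers counting error only.

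Genes with a table mean of 10 or more were fitted with limma 3.58.1 (R 4.3.3, lmFit and eBayes with trend = TRUE) on log2(value + 1), a scale that understates changes of low genes, with Benjamini-Hochberg adjustment over all genes tested. TE6 was fitted with its 3 groups together. Calls needed an adjusted p under 0.05 and a log2 fold change of 0.5 or more in size; the 4 contrasts had no size limit. Alternatives were a pseudocount of 0.1, no filter, upper-quartile rescaling, a replicate block, count tests on whole reads (edgeR 4.0.16, DESeq2 1.42.0), no size limit, a length and GC trend taken out of every library, leaving out each library, subunits only, and TE6 with 2 groups. Canonical lengths, the crossed pairing and the length classes were added after the data were seen. The main limma fit, edgeR, DESeq2, the trend of longest transcripts, the replicate block and the contrasts were tested on simulated data, the other alternatives not. Of 50 genes changed 1.5-fold limma recovered 8 (KYSE180 siTP63) to 27 (BRDT-OE). Of 50 changed 2-fold it recovered 41 (TE6 siBRDT) to 50 (BRDT-OE). The simulated spread was set alike for all genes and was not that of the data.

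Named genes are the 3 largest called rises and falls of a comparison, 10 core genes, paralog sets, members called alike in both lines, the largest called rise and fall of each other list, and BRDT and TP63. NDUFA8, SDHC, ATP5F1 in TE6 and, outside TE6 siTP63, SDHD, with their values under the length settings, were chosen after their values were seen. Members and lists were chosen with earlier results of these data known. All 86 members were found in GENCODE release 44, 17 by an older symbol. Without a known strand setting, reads of 39 members that overlap a gene on the other strand and of 31 on the same strand may be shared. Replicate numbers are from the labels. A marker sum that rests on a withheld item is not reported here.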

Additional observations from a re-analysis of the deposited data

Results flagged for a closer look

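The siBRDT effect differed between KYSE180 and TE6 (limma contrast, adjusted p under 0.05): it was higher in KYSE180 for 2 members (22.5% of all genes) and lower for 49 (19.4%). With canonical lengths 11 members were higher and 28 lower. The shares of all genes printed here are those of the main fit and not of this setting. Among the named genes the difference, KYSE180 minus TE6 on the log2 scale, was 0.50 for CYC1 and 0.76 for NDUFS1. It was -1.31 for ATP5D, -0.43 for ATP5G1, -0.84 for ATP5G2, -0.73 for COX4I1, -0.39 for COX5A, -0.42 for COX6B1, -0.64 for COX7A2, -0.34 for COX7A2L, -0.65 for NDUFB7, -1.09 for NDUFS6, -0.86 for NDUFV1 and -0.61 for UQCRC1.

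The siTP63 effect was higher in KYSE180 for 1 member (26.2% of all genes) and lower for 76 (28.8%). The difference was 1.28 for SDHD. It was -0.68 for ATP5A1, -0.57 for ATP5B, -2.47 for ATP5D, -1.86 for ATP5E, -1.89 for ATP5G1, -1.28 for ATP5G2, -0.79 for ATP5G3, -1.69 for ATP5I, -1.89 for COX4I1, -1.11 for COX5A, -1.66 for COX6B1, -1.86 for COX7A2, -0.39 for COX7A2L, -1.50 for CYC1, -1.004 for NDUFA4, -2.11 for NDUFB7, -2.24 for NDUFS6, -1.205 for NDUFV1, -1.13 for SDHB and -1.02 for UQCRC1. The 2 KYSE180 experiments and TE6 were normalised separately, and the share of short genes in their libraries differed as given above. Groups of 2 or 3 libraries are too small for a test of single outlying libraries.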

How the results depend on the processing

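Of the 50 named gene results called, 0 changed direction in an alternative, 22 kept their call in all and 28 lost it in at least 1; 17 lost it with the length and GC trend removed, 23 with canonical lengths and 5 with upper quartiles, and 0 with edgeR, DESeq2, a pseudocount of 0.1, no filter or the replicate block. The cause was not tested. Libraries a group number 2 or 3, and the median half-width of a member's 95% interval ran from 0.18 (KYSE180 siBRDT) to 0.76 (KYSE150 siTP63).

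Counts of members called up were, for KYSE180 siBRDT, 7 (11 with upper quartiles, 34 without a size limit), for TE6 siBRDT 52 (18 and 32 with the canonical and the longest-transcript trend removed), for KYSE180 siTP63 0 (1, 2, 1 with upper quartiles and 1 without a size limit), for TE6 siTP63 26 (9, 15 and, without a size limit, 41) and for BRDT-OE 1 (4 without a size limit, 0 for subunits only). Counts called down were 0 in KYSE180 siBRDT (1 and 1, and 9 without a size limit), 1 in TE6 siBRDT (3, 2, 0 with upper quartiles and 2 without a size limit), 74 in KYSE180 siTP63 (49 with canonical lengths), 2 in TE6 siTP63 (6, 5, 1 and 8) and 1 with BRDT-OE (0, 0 and 8). Medians moved in TE6 siBRDT (0.21, 0.34 and 0.84), KYSE180 siTP63 (-0.59, -0.72 and -0.78) and TE6 siTP63 (0.15). For the contrasts, members higher in KYSE180 with siBRDT were 11 and 9 with the trends removed and 1 with upper quartiles, and 28 were lower with canonical lengths. With siTP63, 4 and 3 were higher. For TE6 siTP63 minus siBRDT 11, 8, 0 (upper quartiles) and 0 (subunits only) were higher and 25 and 17 lower. For KYSE180 siTP63 minus siBRDT 5 were higher with canonical lengths and 1 among subunits only. The share of all genes called moved with the setting too, for TE6 siBRDT up from 15.6% to 9.57% with canonical lengths. Counts of members in this paragraph are not set beside that share.

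With 1 library left out, calls up ranged 7 to 12 in KYSE180 siBRDT, 47 to 51 in TE6 siBRDT, 0 to 1 in KYSE180 siTP63, 19 to 30 in TE6 siTP63 and 0 to 1 with BRDT-OE. Calls down ranged 0 to 2 in TE6 siBRDT, 71 to 77 in KYSE180 siTP63, 1 to 2 in TE6 siTP63 and 0 to 1 with BRDT-OE. Medians ranged 0.07 to 0.19, 0.52 to 0.60, -1.10 to -0.90, 0.16 to 0.34, -0.26 to 0.32 (KYSE150 siTP63) and -0.11 to 0.11 (BRDT-OE). In the contrasts, higher and lower members ranged 2 to 6 and 32 to 53 (siBRDT between lines), 1 to 1 and 71 to 75 (siTP63), 0 to 3 and 14 to 50 (TE6) and 1 to 3 and 77 to 81 (KYSE180).

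The replicate numbers did not pair the libraries: correlations of same-numbered deviations were 0.15, 0.0047 and 0.18 in KYSE180 siBRDT, 0.047 in KYSE180 siTP63, -0.084 to 0.028 in TE6 and 0.015 to 0.098 with BRDT-OE. With the replicate number as a block, the counts were 7 up in KYSE180 siBRDT, 52 up in TE6 siBRDT, 74 down in KYSE180 siTP63 and 26 up in TE6 siTP63, as without it, 3 and 51 members were higher and lower in the siBRDT contrast between lines and 34 lower in TE6 siTP63 minus siBRDT, and no call of a named gene changed. In KYSE150 siTP63 the correlation was -0.70, and with the numbers crossed 0 members were called up and 4 down, beside 13.2% and 14.4% of all genes.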
